A study of Mus musculus with 4 samples.

Results

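Mast cell proteases and granzymes are serine proteases, with 1 metallo-carboxypeptidase among them, that mast cells, basophils and cytotoxic lymphocytes store in granules. The 10 genes described here are Mcpt1, Mcpt2, Mcpt4, Mcpt8, Mcpt9, Cma1, Cma2, Gzmb, Gzmc and Cpa3, found by their RefSeq identifiers among 23003 gene symbols (30794 RefSeq IDs) with counts. They were chosen by their counts in Aire-KO against WT, a difference already known when the list was made, so their values in that contrast are a description and carry no test.

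RNA-seq of polyadenylated RNA was done on mTEChi, medullary thymic epithelial cells that were gated as high for the MHC class II molecule I-A/E and negative for CD45 and Ly51. Cells came from mice of 4 weeks on the C57BL/6 background, with thymi of 4 mice pooled into each library. There were 2 libraries from Aire-KO mice, which carry the B6.129S2-Aire tm1.1Doi allele on both chromosomes, and 2 from WT mice. The first experiment and its replicate each held 1 library of either genotype. The p-values below come from a fit that did not pair libraries by experiment, and measure the spread between libraries of a genotype. A fit with that pairing called more IDs in both directions and is described in the closing section.

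In tissues, chymases such as those of Mcpt1 and Mcpt4 cleave proteins after aromatic residues once a mast cell degranulates, and carboxypeptidase A3 trims the ends of the peptides that result. Granzymes enter a target cell with the help of perforin, and granzyme B then activates the caspases that kill it. Aire is a nuclear regulator by which mTEChi transcribe genes otherwise restricted to peripheral tissues, so that developing T cells that recognise their products can be removed or diverted.

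Deposited counts summed to between 111077552 and 242862323 per library. Counts of Aire itself were 200697 and 175884 in the libraries labelled Aire-KO, against 87229 and 36597 in those labelled WT (log2 fold change 1.61, SE 0.44, edgeR quasi-likelihood adjusted p = 0.0885). Aire was thus not lower in the libraries labelled Aire-KO, and whole-gene counts do not isolate the part that the allele removes, so they do not check the labels. Over all IDs tested, 1495 were called lower and 69 higher in the libraries labelled Aire-KO. All directions below are those of the labels. None of 11 mTEC markers passed the test. For 4 of them both libraries labelled Aire-KO lay above both labelled WT. For 2 they lay below, Epcam and Cldn4, with log2 fold changes of -0.27 and -0.34. Of the 26790 IDs tested, 20.9% had both above and 28.4% both below. The summed level of the 11 was 26950 and 33000 CPM (counts scaled by library size) in the libraries labelled Aire-KO, against 16010 and 26370 CPM in those labelled WT. Cd74, H2-Aa and H2-Ab1 made up most of this sum in every library. Epcam, Cldn4, H2-Aa and H2-Ab1 were singled out after their values were seen. Nearest to the threshold were Tnfrsf11a, Cd80, Cd74 and Fezf2, with log2 fold changes of 1.09, 0.89, 0.76 and 0.61. A marker was called lower without Aire-KO replicate 2, as were more of all IDs.

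The start of Mcpt1 and that of Mcpt4 hold nearly the same letters, shown because these chymase genes were high together in the libraries labelled WT. RefSeq promoters (build GRCm38.p6, 250 bases before to 50 after the start) were matched for 8 of the 10 genes, Mcpt2 and Cma2 being the exceptions. The sequences run 5′ to 3′ along the strand of the gene, and capitals mark TATAAA, the letters of a TATA box. Their coordinates are chr14:56017924-56017953 on the plus strand for Mcpt1, chr14:56062325-56062354 on the minus strand for Mcpt4 and chr3:20242195-20242224 on the minus strand for Cpa3.
Mcpt1: ccacgttggatcTATAAAagcaggaaccag
Mcpt4: ccacgttggagcTATAAAagcaggaaccag
Cpa3: taaaagctgaggTATAAAacccgtataggg
The capitals began 28 bases before the start in Mcpt1, 32 in Mcpt4 and 31 in Cpa3. TATAAA was present on either strand in 3 of the 8 promoters, and in 13.6% of all 32851 promoters. AGATAA, a letter string that GATA factors bind, was present on either strand in the promoter of Cpa3 alone among the 8 and in 11.2% of all promoters. CATGTG, a string that MITF binds, was present in that of Gzmc alone and in 14.2% of all. These matches describe letters only.

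Each of the 10 genes had counts in the libraries labelled WT, and few or none were left in those labelled Aire-KO. Mcpt9 and Cma2 share most of their sequence, as given below, so their counts may not be separate. Summed over the genes, counts were 37 and 23 in the libraries labelled Aire-KO, against 8507 and 5764 in those labelled WT, or 0.255 and 0.10 CPM against 38.9 and 48.4 CPM. The pooled level in the libraries labelled Aire-KO was 0.379% of that in those labelled WT, with a 95% interval for counting error alone of 0.289 to 0.488%. In sorted bulk cells, fewer expressing cells and less RNA per cell cannot be told apart. For each of the 10 genes both libraries labelled Aire-KO lay below both labelled WT, which was so for 28.4% of the 26790 RefSeq IDs tested, and 20.9% had both above. The edgeR fit called 8 of the 10 lower and 0 higher, where 5.58% of all IDs were called lower and 0.258% higher. The rule used this contrast, so nothing is read from these counts. The median log2 fold change, with genes at 0 held at their bound, was -7.25 for the 10 genes and 0.03 over all IDs.

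**Figure D1:**
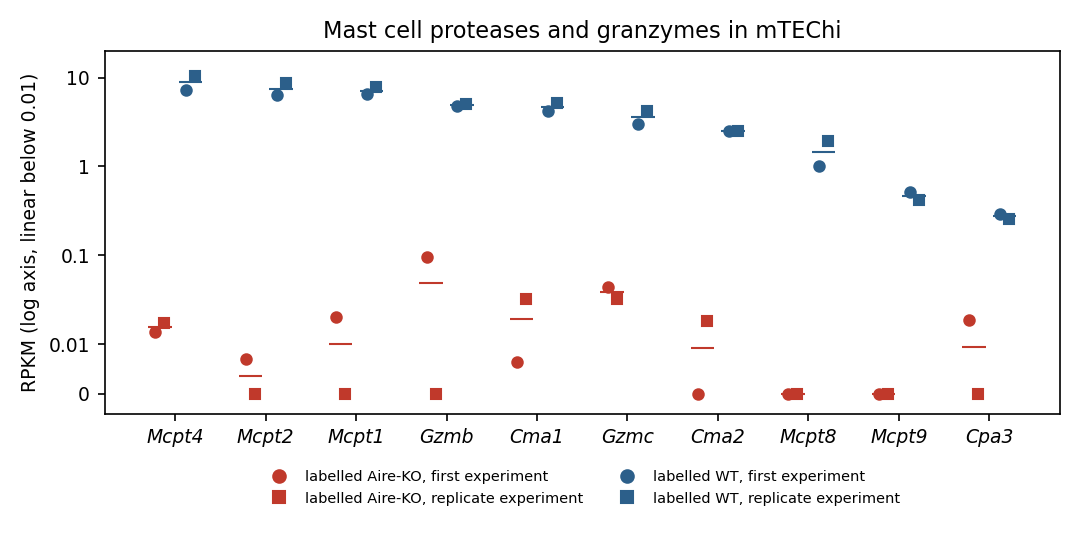
RPKM (log axis, linear below 0.01) of the 10 genes in each library, with those labelled Aire-KO left of those labelled WT, circles for the first experiment, squares for its replicate and bars for the mean of the 2 libraries. Libraries labelled Aire-KO stay at or below 0.0972 RPKM, and those labelled WT lie between 0.260 and 10.4 RPKM.

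Mcpt4 encodes mouse mast cell protease 4, a chymase of connective tissue mast cells. Its counts were 2 and 4 in the libraries labelled Aire-KO, against 1585 and 1223 in those labelled WT, or 0.0139 and 0.0176 RPKM (CPM per kilobase of exon) against 7.31 and 10.4 RPKM. Both libraries labelled Aire-KO were near the floor of a few reads, and the log2 fold change was -9.05 (SE 0.66). The level left was 0.193% of that in the libraries labelled WT (counting interval 0.0706 to 0.420%).

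Mcpt2 and Mcpt1 encode the proteases typical of mucosal mast cells, of which Mcpt1 is the active chymase. Mcpt2 had 1 and 0 counts in the libraries labelled Aire-KO, against 1369 and 995 in those labelled WT (0.00709 and 0 RPKM against 6.44 and 8.60 RPKM). What was left of Mcpt2 came to 0.0381% (0.000965 to 0.213%), resting on 1 read. Mcpt1 had 3 and 0 counts in the libraries labelled Aire-KO, against 1457 and 951 in those labelled WT (0.0201 and 0 RPKM against 6.47 and 7.76 RPKM). The groups did not overlap for either gene, and 0.112% of Mcpt1 was left (0.0231 to 0.329%).

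Cma1 encodes mouse mast cell protease 5, which belongs to the chymase family but has elastase-like specificity, and which is stored together with carboxypeptidase A3. It had 1 and 8 counts in the libraries labelled Aire-KO, against 989 and 665 in those labelled WT (0.00640 and 0.0323 RPKM against 4.2 and 5.19 RPKM), a log2 fold change of -7.76 (SE 0.84). Cma2, another gene of the chymase family, had 0 and 4 counts in the libraries labelled Aire-KO, against 524 and 284 in those labelled WT (0 and 0.0184 RPKM against 2.53 and 2.52 RPKM). Most of the reads left for this pair were in the library labelled Aire-KO of the replicate experiment. Of Cma1, 0.490% was left (0.224 to 0.933%), and of Cma2, 0.446% (0.121 to 1.15%).

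Mcpt8, a protease of basophils rather than mast cells, had 0 counts in each library labelled Aire-KO, against 188 and 192 in those labelled WT (1.02 and 1.92 RPKM). Mcpt9 likewise had 0 in both, against 224 and 101 in those labelled WT (0.512 and 0.424 RPKM). With a floor of 3 counts in each library labelled Aire-KO, Mcpt8 was at least 73.3-fold lower and Mcpt9 at least 55.5-fold lower. These bounds reflect the modest counts in the libraries labelled WT, and the true differences may be larger.

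Gzmb had 20 and 0 counts in the libraries labelled Aire-KO, against 1469 and 843 in those labelled WT (0.0972 and 0 RPKM against 4.74 and 5.0 RPKM). The library labelled Aire-KO of the first experiment thus held all the Gzmb reads of that genotype, and they were 54.1% of the counts of all 10 genes there. The log2 fold change was -6.74 (SE 1.46). Gzmc, a granzyme of activated cytotoxic lymphocytes, had 6 and 7 counts in the libraries labelled Aire-KO, against 608 and 465 in those labelled WT (0.0442 and 0.0326 RPKM against 2.97 and 4.18 RPKM). Both of its libraries labelled Aire-KO held reads, and its log2 fold change was -6.53 (SE 0.69). Of Gzmb, 0.780% was left (0.475 to 1.21%), and of Gzmc, 1.09% (0.580 to 1.88%).

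Cpa3, the only carboxypeptidase and the only one of the 10 on another chromosome, was the lowest in the libraries labelled WT. It had 4 and 0 counts in the libraries labelled Aire-KO, against 94 and 45 in those labelled WT (0.0189 and 0 RPKM against 0.295 and 0.260 RPKM). The log2 fold change was -4.97 (SE 1.44), and 2.59% was left (0.697 to 6.79%). Gzmb and Cpa3 were the 2 genes outside the call threshold and Mcpt9 was the last inside it. The SE of Gzmb and of Cpa3 was above that of Mcpt4 and Gzmc, which had reads in both libraries labelled Aire-KO.

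**Figure D2:**
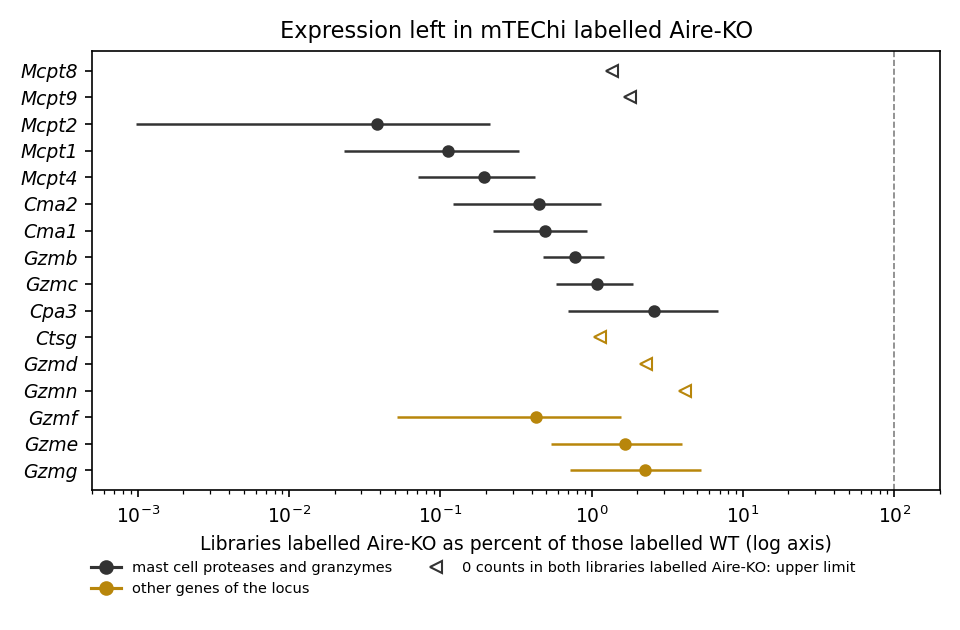
Level in the libraries labelled Aire-KO as a percent of that in those labelled WT (log axis) for the 10 genes (dark) and the 6 other protease genes of the locus (gold). Points are ratios of pooled counts scaled by effective library size, bars are 95% intervals for counting error only and open triangles are upper limits from a floor of 3 counts per library. Every point and limit lies far left of the dashed line at 100%, from 0.0381% for Mcpt2 to a limit of 4.14% for Gzmn.

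Within the libraries labelled WT the 10 genes spanned a wide range per length. Mcpt4, Mcpt2 and Mcpt1 were highest, with ranges that overlapped. Within each library Mcpt4 was above Mcpt2 and Mcpt1, whose order changed between the libraries and is not resolved. Gzmb and Cma1 followed and overlapped each other. Gzmc, Cma2, Mcpt8, Mcpt9 and Cpa3 followed in that order, and none of these neighbours overlapped. Reads that Cma2 and Mcpt9 may share leave the places of both uncertain. Mcpt8 and Mcpt9 did overlap when the 5′ untranslated exons were left out, with 1.03 and 1.94 RPKM for Mcpt8 and 1.15 and 0.923 RPKM for Mcpt9, so their order is not resolved. Mcpt4 stood at percentiles 68.8 and 75.7 of 21383 genes with a length, and Cpa3 at 21.7 and 22.4. The median gene had 2.83 and 2.64 RPKM in the libraries labelled WT. The replicate library labelled WT was above the first in 7 of the 10 genes, by ratios that ran from 0.828 for Mcpt9 to 1.88 for Mcpt8 over all 10.

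Of the 10 genes, 9 lie in 1 cluster, the chymase locus of chromosome 14. On mm9, the build to which the reads were mapped, it ran from 56560290 (the first base of Cma1) to 56881097 (the last of Gzmb), a length of 320.8 kb. The chymase end held Cma1 (chr14:56560290-56563498), Cma2 (chr14:56569817-56592866), Mcpt1 (chr14:56636801-56639228), Mcpt9 (chr14:56645701-56649332), Mcpt2 (chr14:56660960-56663471), Mcpt4 (chr14:56678581-56681147) and Mcpt8 (chr14:56701003-56704053). The granzyme end held Gzmc (chr14:56850238-56853493) and Gzmb (chr14:56877693-56881097). Cma2, Mcpt1 and Mcpt2 are on the plus strand and the others on the minus strand. Cpa3 lies at chr3:20115516-20142080 on the minus strand.

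The locus holds 6 more protease genes that the list left out. Earlier results of these data were known when the lists were made, so the p-values given for them are no independent test. All 6 fell in the libraries labelled Aire-KO by edgeR's quasi-likelihood test with Benjamini-Hochberg adjustment over all 26790 IDs, against 5.58% of all IDs. Gzmd, Gzme, Gzmf and Gzmg share sequence with each other and with Gzmc, so these calls cannot be counted as 6 separate results. Ctsg, which encodes cathepsin G of neutrophils and mast cells and lies next to Mcpt8, had 0 counts in each library labelled Aire-KO, against 203 and 242 in those labelled WT (at least 87.8-fold lower, adjusted p = 0.0230). Gzmf, a granzyme of activated lymphocytes, had 2 and 0 counts in the libraries labelled Aire-KO, against 239 and 183 in those labelled WT, so that 0.427% was left (0.0516 to 1.55%, adjusted p = 0.0281).

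Gzme had 2 and 3 counts in the libraries labelled Aire-KO, against 150 and 121 in those labelled WT (log2 fold change -5.92, SE 0.91, edgeR adjusted p = 0.0264). Gzmd had 0 in both, against 172 and 83 in those labelled WT (at least 44.0-fold lower, edgeR adjusted p = 0.0276). Gzmg had 3 and 2 counts in the libraries labelled Aire-KO, against 107 and 94 in those labelled WT (log2 fold change -5.44, SE 1.0, edgeR adjusted p = 0.0366). Gzmn had 0 in both, against 70 and 59 in those labelled WT (at least 24.2-fold lower, edgeR adjusted p = 0.0381). These granzymes sit between Ctsg and Gzmc. Without WT replicate 2 the adjusted p was 0.149 for Gzmg and 0.0581 for Gzmn, and both calls were lost.

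Summed over the 15 protease genes of the locus, the level was 0.242 and 0.125 RPKM in the libraries labelled Aire-KO, against 40.8 and 52.9 RPKM in those labelled WT. At the chymase end the nearest gene with counts was Sdr39u1, an enzyme gene expressed in many tissues, 41.2 kb from Cma1. It had 36.4 and 32.9 RPKM in the libraries labelled Aire-KO, against 25.4 and 26.1 RPKM in those labelled WT (log2 fold change 0.43, SE 0.34, edgeR adjusted p = 0.588). At the granzyme end, 102.8 kb from Gzmb, the nearest was Atp12a, which encodes a proton pump of epithelia. Atp12a fell, with 0.392 and 0.293 RPKM in the libraries labelled Aire-KO, against 2.22 and 3.04 RPKM in those labelled WT (log2 fold change -2.94, SE 0.46, edgeR adjusted p = 0.0269).

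Inside the locus, the annotated pseudogene Gm5801 was the only gene with counts whose groups did not separate in the direction of the others. It was singled out after its values were seen. It had 15.2 and 18.6 RPKM in the libraries labelled Aire-KO, against 14.4 and 15.8 RPKM in those labelled WT (log2 fold change 0.16, SE 0.35, edgeR adjusted p = 0.876). The deposited length of Gm5801 was 2370 bases and its annotated span 816 bases, so its reads cannot all be placed in the locus.

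**Figure D3:**
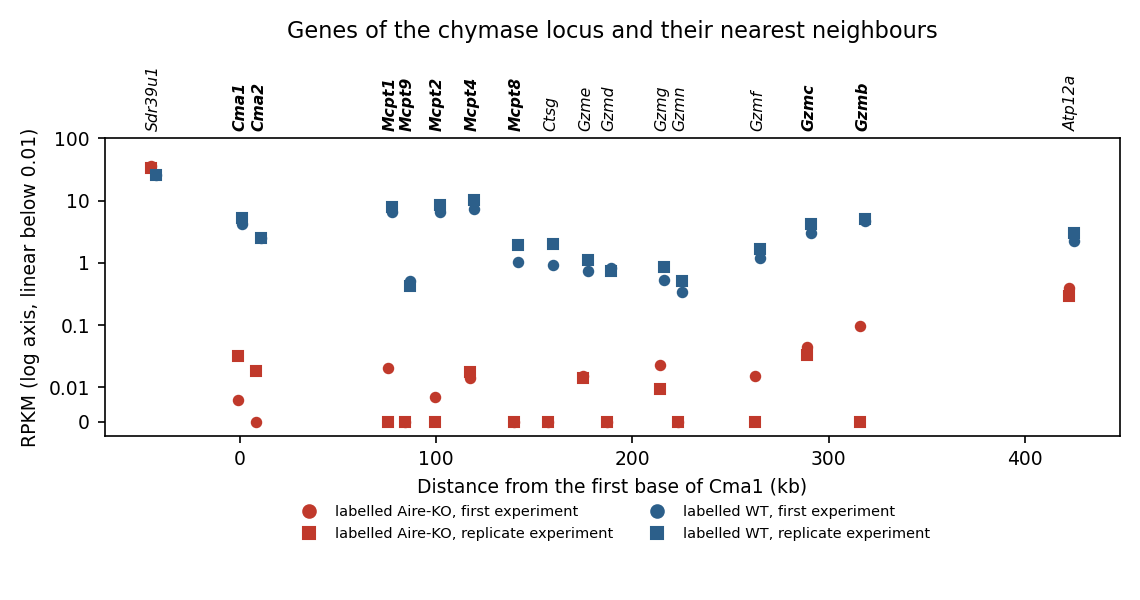
RPKM (log axis, linear below 0.01) of the protein-coding genes along the chymase locus against distance from the first base of Cma1 in kb, with the 9 described genes that lie there in bold and libraries labelled Aire-KO drawn just left of those labelled WT. All 15 protease genes separate, the libraries labelled WT lying at 0.335 RPKM or above, while in the libraries labelled Aire-KO Sdr39u1 at the left is at 32.9 RPKM or above and Atp12a at the right at 0.293 RPKM or above.

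Several of these genes are close copies, which bears on how reads were shared among them. The coding sequences of Mcpt9 and Cma2 were 98.1% identical, and those of Mcpt1 and Mcpt4 86.5%. Of the 50-base words of the Mcpt9 transcript, 38.0% occurred exactly elsewhere in the genome, and 85.0% with up to 2 mismatches, all of those in Cma2. For Cma2 these shares were 38.0% and 90.5%. The values of Mcpt9 and Cma2 are therefore uncertain as separate genes. For Cma1 the exact share was 11.9% and that with up to 2 mismatches 34.9%, with all matches outside the other protease genes described. These shares were 8.59% and 22.6% for Mcpt4, 4.5% and 19.9% for Gzmc and 1.93% and 8.68% for Mcpt2, so some of their reads may also belong elsewhere. Mcpt1, Mcpt8, Gzmb, Cpa3 and Ctsg had no exact word elsewhere. Gzmd, Gzme, Gzmf and Gzmg were also close copies, with 43.9 to 71.5% of words matched elsewhere with up to 2 mismatches, so their values are uncertain as separate genes too.

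The few reads left in the libraries labelled Aire-KO fell in different parts of the transcripts. For Mcpt4 the last exon held 2 and 4 counts and the earlier coding exons 0 and 0, against 506 and 400 in the last exon and 999 and 697 in the earlier coding exons of the libraries labelled WT. For Cma2 the last exon held 0 and 4 counts and the earlier coding exons 0 and 0, against 242 and 119 and then 260 and 156 in the libraries labelled WT. The last exons of Mcpt4 and Cma2 each held 4 counts in the same library, and whether these were the same reads cannot be told from counts. For Gzmc the earlier coding exons held 6 and 7 counts and the last exon 0 and 0, against 451 and 300 and then 106 and 134 in the libraries labelled WT. Numbers this small allow no comparison of positions between genotypes.

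In the libraries labelled WT, reads covered both the earlier coding exons and the last exon of every one of the 10 genes. The density of counts in the last exon over that in the earlier coding exons had a median of 1.07 and 1.21 for the 10 genes in the 2 libraries, against 1.61 and 1.38 over all genes with at least 100 reads. Mcpt4 had ratios of 0.847 and 0.959 and Mcpt9 of 1.86 and 1.95. The Mcpt9 model carries 1227 bases of 5′ untranslated exon with 10 and 0 counts in the libraries labelled WT, so its RPKM is low for its coding part.

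The study asked how far mTEChi use a proximal polyadenylation site, by the d3′UTR ratio, the density of counts beyond that site over the density upstream of it in the last exon. Only Gzmb among the 10 genes has such a site in the deposited annotation, with 91 bases beyond it and 614 upstream. In the libraries labelled WT, 20 counts against 747 gave a ratio of 0.181 (counting interval 0.110 to 0.281). In the replicate, 31 against 484 gave 0.432 (0.290 to 0.622). These intervals treat every count as independent, which joined read pairs and PCR copies are not. Whether the replicates differed is therefore not resolved. A stretch of 91 bases has few places for a read of 50 bases, and with both lengths reduced for reads that cannot fit the ratios were 0.360 and 0.862. The ratios without this reduction stood at percentiles 31.1 and 55.3 of all IDs with a d3′UTR. The library labelled Aire-KO of the first experiment gave 1.5 from 2 counts against 9 (0.158 to 7.24), and its replicate had no reads in either stretch. The ratio was not resolved in the libraries labelled Aire-KO.

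Related granule proteases encoded elsewhere in the genome were next compared. Of 9 tested, 4 fell, 0 rose and 5 did not pass, where 5.58% of all IDs were called lower and 0.258% higher. The median log2 fold change was -3.79 with genes at 0 held at their bound. Prss34, a tryptase-like protease of basophils and mast cells, had 5 and 0 counts in the libraries labelled Aire-KO, against 2090 and 1894 in those labelled WT (log2 fold change -9.71, SE 1.18, edgeR adjusted p = 0.0180). Tpsb2, the mast cell tryptase beta gene, had 6 and 10 counts in the libraries labelled Aire-KO, against 1245 and 1339 in those labelled WT (log2 fold change -7.61, SE 0.69, edgeR adjusted p = 0.0176). Tpsab1, the neighbouring tryptase gene, had 5 and 18 counts in the libraries labelled Aire-KO, against 326 and 172 in those labelled WT (log2 fold change -4.65, SE 0.77, edgeR adjusted p = 0.0298). Prtn3, the neutrophil proteinase, had 2 and 0 counts in the libraries labelled Aire-KO, against 129 and 287 in those labelled WT, and 0.433% was left (0.0523 to 1.58%, edgeR adjusted p = 0.0366). Without Aire-KO replicate 1 more of the list were called lower, as were more of all IDs. Tpsb2 and Tpsab1 are related in sequence and their reads may have been shared.

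Among 7 carboxypeptidases other than Cpa3, 1 fell and 0 rose, where 5.58% of all IDs were called lower. Cpb1, a pancreatic digestive enzyme, had 0 counts in each library labelled Aire-KO, against 100 and 52 in those labelled WT (at least 26.5-fold lower, edgeR adjusted p = 0.0359). Cpa1, another pancreatic enzyme, had 0 and 7 counts in the libraries labelled Aire-KO, against 27 and 45 in those labelled WT (log2 fold change -3.84, SE 1.44, edgeR adjusted p = 0.190). Cpb2, made by liver, had 114 and 117 counts in the libraries labelled Aire-KO, against 420 and 352 in those labelled WT (log2 fold change -1.91, SE 0.58, edgeR adjusted p = 0.112). Cpa6 had 13 and 4 counts in the libraries labelled Aire-KO, against 31 and 64 in those labelled WT (log2 fold change -2.68, SE 1.21, edgeR adjusted p = 0.281). With either library labelled Aire-KO left out, more of the list were called lower, as were more of all IDs.

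The proteins that activate, store, deliver or inhibit these proteases did not share a direction. Of 11 tested, 3 fell, 0 rose and 8 did not pass, with a median log2 fold change of 0.05, where 5.58% of all IDs were called lower. For 3 of them both libraries labelled Aire-KO lay below both labelled WT, and for 5 above, against 28.4% and 20.9% of all IDs tested. Prf1, the perforin that lets granzymes into cells, had 13 and 6 counts in the libraries labelled Aire-KO, against 286 and 138 in those labelled WT (log2 fold change -4.44, SE 0.88, edgeR adjusted p = 0.0419). Slpi, a secreted inhibitor of neutrophil elastase and related proteases, had 1.75 and 1.37 RPKM in the libraries labelled Aire-KO, against 21.8 and 31.7 RPKM in those labelled WT (log2 fold change -4.10, SE 0.45, edgeR adjusted p = 0.0176). Serpinb9b, a serpin of the clade that holds the granzyme B inhibitor, had 0.339 and 0.422 RPKM in the libraries labelled Aire-KO, against 3.87 and 5.47 RPKM in those labelled WT (log2 fold change -3.62, SE 0.48, edgeR adjusted p = 0.0198). Serpina3n, a secreted serpin, had 9.13 and 6.88 RPKM in the libraries labelled Aire-KO, against 4.13 and 3.67 RPKM in those labelled WT (log2 fold change 1.04, SE 0.38, edgeR adjusted p = 0.182).

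**Figure D4:**
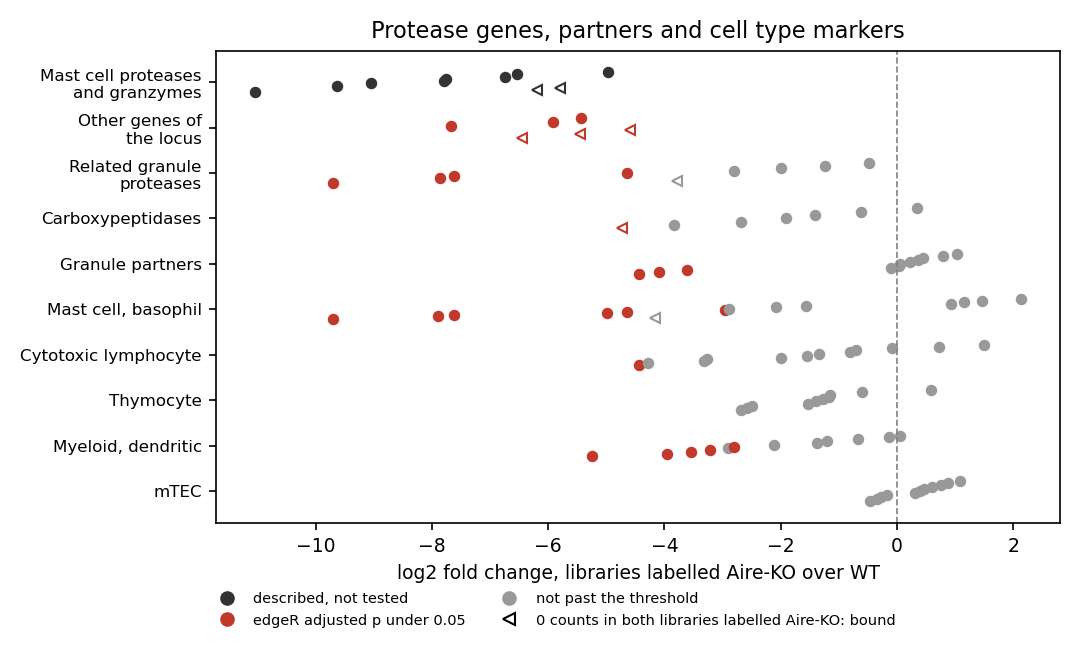
log2 fold change, libraries labelled Aire-KO over those labelled WT, of each gene with a fit in the 10 lists, 1 list a row. Dark points are the 10 described genes, red points passed the edgeR test, grey points did not, and open triangles are bounds for genes with 0 counts in both libraries labelled Aire-KO. The row of the 10 genes lies at or below -4.97 and that of the other locus genes at or below -4.60, the mTEC row lies on either side of 0 and the mast cell row is split.

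Markers of cells that make these proteases in other tissues moved in part with them. Of 14 mast cell and basophil markers tested, 6 fell, 0 rose and 8 did not pass, where 5.58% of all IDs were called lower. For 9 of them both libraries labelled Aire-KO lay below both labelled WT, and for 3 above (Kit, Hdc and Il4). These shares were 28.4% and 20.9% over all IDs tested. Il4 had the highest log2 fold change of the list, 2.14 (SE 0.5, edgeR adjusted p = 0.0608). Its counts were 3191 and 2364 in the libraries labelled Aire-KO, against 743 and 467 in those labelled WT. The median log2 fold change of the list was -2.93. Fcer1a, the alpha chain of the high-affinity IgE receptor, had 15 and 29 counts in the libraries labelled Aire-KO, against 577 and 567 in those labelled WT (log2 fold change -5.0, SE 0.65, edgeR adjusted p = 0.0191). Ms4a2, its beta chain, had 1 and 0 counts in the libraries labelled Aire-KO, against 246 and 65 in those labelled WT, and 0.290% was left (0.00731 to 1.63%, edgeR adjusted p = 0.0304). Kit, the receptor by which mast cells survive, had 42.3 and 22.9 RPKM in the libraries labelled Aire-KO, against 17.9 and 11.4 RPKM in those labelled WT (log2 fold change 1.15, SE 0.47, edgeR adjusted p = 0.225). Tpsab1, Tpsb2 and Prss34 stand in this list and in that of related proteases.

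The summed level of the 14 mast cell and basophil markers was 1489 and 1455 CPM in the libraries labelled Aire-KO, against 572 and 620 CPM in those labelled WT, the opposite direction to the proteases. Hdc, the histamine-forming enzyme, made up most of this sum. Without it the other 13 summed to 264 and 139.5 CPM in the libraries labelled Aire-KO, against 150.4 and 115 CPM in those labelled WT, groups that overlapped. Kit made up most of that remainder, so it describes mainly Kit. Its level was 219.2 and 118.5 CPM in the libraries labelled Aire-KO, against 92.8 and 58.95 CPM in those labelled WT. Hdc had 515 and 553 RPKM in the libraries labelled Aire-KO, against 177 and 212 RPKM in those labelled WT. Mrgprb1 was the marker at 0 counts in both libraries labelled Aire-KO, against 95 and 20 in those labelled WT. Hdc, Il4 and Mrgprb1 were singled out after their values were seen. The part of mast cells or basophils in the result was not tested.

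Of 12 cytotoxic lymphocyte markers tested, 1 fell (Prf1) and 0 rose, where 5.58% of all IDs were called lower. The summed level of the 14 listed was 140.8 and 100.9 CPM in the libraries labelled Aire-KO, against 80.7 and 76.4 CPM in those labelled WT. Tbx21 and Eomes, transcription factors of these cells, made up most of this sum, and without them the other 12 summed to 6.62 and 5.44 CPM in the libraries labelled Aire-KO, against 12.5 and 15.2 CPM in those labelled WT, the opposite direction. In 9 of the 14 (8 of the 12 tested) both libraries labelled Aire-KO lay below both labelled WT, against 28.4% of all IDs tested. The median log2 fold change of those tested was -1.44. Tbx21 was singled out after its values were seen. Ncr1, an activating receptor of natural killer cells, had 0 counts in each library labelled Aire-KO, against 11 and 6 in those labelled WT, too few for the test. Nkg7, a granule protein, had 15 and 28 counts in the libraries labelled Aire-KO, against 158 and 185 in those labelled WT (log2 fold change -3.32, SE 0.76, edgeR adjusted p = 0.0586). Cd8a, a chain of the CD8 co-receptor, had 154 and 350 counts in the libraries labelled Aire-KO, against 659 and 543 in those labelled WT (log2 fold change -1.55, SE 0.52, edgeR adjusted p = 0.144). Eomes had 7.54 and 3.47 RPKM in the libraries labelled Aire-KO, against 2.22 and 1.66 RPKM in those labelled WT (log2 fold change 1.5, SE 0.49, edgeR adjusted p = 0.138). More of the list were called lower without Aire-KO replicate 1, Aire-KO replicate 2 or WT replicate 1, as were more of all IDs. The part of cytotoxic lymphocytes in the result was not tested.

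None of 10 thymocyte markers passed the test. In 8 of them both libraries labelled Aire-KO lay below both labelled WT, and in 1 (Cd4) above, against 28.4% and 20.9% of all IDs tested. The median log2 fold change was -1.34. The summed level of the 10 was 33.4 and 38.7 CPM in the libraries labelled Aire-KO, against 43.0 and 62.2 CPM in those labelled WT. Cd4 made up most of this sum in the libraries labelled Aire-KO. It had 18.0 and 22.4 CPM there, against 10.7 and 16.3 CPM in those labelled WT (log2 fold change 0.59, SE 0.39, edgeR adjusted p = 0.505). Cd4 was singled out after its values were seen. Cd3g, a chain of the T cell receptor complex, had 92 and 127 counts in the libraries labelled Aire-KO, against 560 and 544 in those labelled WT (log2 fold change -2.58, SE 0.56, edgeR adjusted p = 0.0516). Dntt, the enzyme that adds bases at receptor gene joints, had 28 and 145 counts in the libraries labelled Aire-KO, against 461 and 385 in those labelled WT (log2 fold change -2.68, SE 0.74, edgeR adjusted p = 0.0897). Ptcra, the pre-T cell receptor chain, had 17 and 20 counts in the libraries labelled Aire-KO, against 98 and 84 in those labelled WT (log2 fold change -2.49, SE 0.80, edgeR adjusted p = 0.129).

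Cd3e, another chain of the T cell receptor complex, had 53 and 129 counts in the libraries labelled Aire-KO, against 223 and 126 in those labelled WT (log2 fold change -1.16, SE 0.62, edgeR adjusted p = 0.373). Ptprc, which encodes CD45 and should be removed by the sort, had 0.739 and 0.248 RPKM in the libraries labelled Aire-KO, against 1.67 and 1.18 RPKM in those labelled WT (log2 fold change -1.53, SE 0.61, edgeR adjusted p = 0.223, and 0.00863 without Aire-KO replicate 1). Some thymocyte markers were called lower without Aire-KO replicate 1, Aire-KO replicate 2 or WT replicate 1. More of all IDs were also called lower in each of those fits, which left 1 library of a genotype. The part of thymocytes in the result was not tested.

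Of 12 myeloid and dendritic cell markers 5 fell, 0 rose and 7 did not pass, where 5.58% of all IDs were called lower. S100a9, a calcium-binding protein of neutrophils, had 700 and 748 counts in the libraries labelled Aire-KO, against 7785 and 10723 in those labelled WT (log2 fold change -3.96, SE 0.59, edgeR adjusted p = 0.0239). Itgam, the integrin chain CD11b, had 410 and 729 counts in the libraries labelled Aire-KO, against 3788 and 2946 in those labelled WT (log2 fold change -2.81, SE 0.42, edgeR adjusted p = 0.0239). Adgre1, the macrophage antigen F4/80, had 73 and 226 counts in the libraries labelled Aire-KO, against 1506 and 838 in those labelled WT (log2 fold change -3.22, SE 0.54, edgeR adjusted p = 0.0308). Cd209a, a lectin of dendritic cells, had 4 and 6 counts in the libraries labelled Aire-KO, against 181 and 151 in those labelled WT (log2 fold change -5.25, SE 0.82, edgeR adjusted p = 0.0271, and 0.0546 without WT replicate 2).

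The summed level of the myeloid list was 363 and 375 CPM in the libraries labelled Aire-KO, against 389 and 778 CPM in those labelled WT. Lyz2, the lysozyme gene, which was singled out after its values were seen, made up most of this sum, and without it the other 11 summed to 37.1 and 29.9 CPM in the libraries labelled Aire-KO, against 136.5 and 289.7 CPM in those labelled WT. S100a8 (46.9 and 127.8 CPM) and S100a9 (35.55 and 89.96 CPM) supplied most of that remainder in the libraries labelled WT. For 10 of the 12 markers both libraries labelled Aire-KO lay below both labelled WT, against 28.4% of all IDs tested. Flt3 did not fall (log2 fold change 0.06). S100a8 and Flt3 were singled out after their values were seen. Most myeloid markers were thus lower together with the proteases, and the part of myeloid cells in the result was not tested.

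The genes most like Mcpt2 and Mcpt4 across the 4 libraries were found by the root mean square difference of log2(RPKM + 0.01) over 21383 genes, a measure that includes the difference by which the list was made. Nearest to Mcpt2 was Trh, the thyrotropin-releasing hormone gene of the hypothalamus (0.131), with 2 and 0 counts in the libraries labelled Aire-KO, against 1791 and 1358 in those labelled WT. Pth, the parathyroid hormone gene, was second (0.222), with 1 and 0 counts in the libraries labelled Aire-KO, against 1328 and 765 in those labelled WT. Defa32, an alpha-defensin gene of the gut, was the third (0.406), with 0 counts in both libraries labelled Aire-KO, against 513 and 408 in those labelled WT. Nearest to Mcpt4 were Rbp7, a retinoid-binding protein gene (0.406, with 2 and 4 counts in the libraries labelled Aire-KO, against 745 and 860 in those labelled WT), Obp2a, an odorant-binding lipocalin gene (0.697, with 2 and 9 counts in the libraries labelled Aire-KO, against 1193 and 1310 in those labelled WT), and Tpsb2 (0.703).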

How the data were processed

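Polyadenylated RNA of 4 libraries was sequenced by the authors as paired-end reads of 100 bp with a kit that does not mark strand. The reads were then trimmed and joined to single-end reads of 50 bp, passed through the CASAVA filter and aligned to mm9 with Bowtie 1.0.0. The handling of reads with several matches is not given in the sources used here. The deposited counts are raw whole-number counts of reads lying wholly inside the exons of each RefSeq ID, and, in separate tables, inside parts of the last exon. The table columns do not spell out the genotypes in English, and were read as wild type and mutant. The feature lengths in bp that the authors deposited were used for RPKM. Reads of overlapping or antisense genes cannot be told apart.

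From the counts, edgeR 4.0.16 (R 4.3.3) fitted genotype alone over all 4 libraries (TMM factors, filterByExpr, quasi-likelihood test, Benjamini-Hochberg adjustment over 26790 IDs, threshold 0.05). The SE is the log2 fold change over the square root of the test's F. The fit was also run on simulated counts with known changes. Those counts held no effect shared by same-numbered libraries, so that run does not check the fit for the shared deviations given below. CPM and RPKM use TMM-scaled totals. Each gene is represented by its RefSeq ID with the most counts. Symbols came from RefSeq names (95.3% of IDs matched), mm9 coordinates from GENCODE and promoters from RefSeq. Alternatives were DESeq2 1.42.0, its size factors, library sizes alone, no filter on low counts, a replicate block, 1 ID per gene and leaving out each library. Intervals (95%, exact) and the floor of 3 counts cover counting error only, as PCR copies and joined read pairs are not independent molecules.

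The genes named were all 10 members, the rest of the locus, the first 4 by p of each other list, set defining markers, Aire, the nearest genes on either side of the locus and the 3 genes most like Mcpt2 and Mcpt4. The members and lists were chosen with earlier results of these data known. A planned comparison of proteins was replaced by one of coding sequences. Serpina3g was not matched. Ncr1 and Gzmk did not pass the filter.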

Additional observations from a re-analysis of the deposited data

How the results depend on the processing

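Of 58 genes refitted, only Gm5801 changed sign, with a log2 fold change of -0.12 with library sizes alone, and neither value passed the test. Of 100 refits of the 10 genes, 89 gave the same side of the threshold and 11 newly passed it, 8 of them for Gzmb and 3 for Cpa3. Of 60 refits of the other locus genes, 58 gave the same side, the exceptions being Gzmg and Gzmn without WT replicate 2. Calls over all IDs, 1495 lower and 69 higher, became 3438 and 603 with DESeq2, 2470 and 55 with library sizes alone (median log2 fold change -0.26), 1910 and 143 without a filter on low counts, and 1524 to 3664 lower and 66 to 521 higher when 1 library was left out, most lower without Aire-KO replicate 1 and most higher without Aire-KO replicate 2.

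The study reports a replicate experiment in both genotypes, but no source used here states that a replicate number marks a shared day or batch. Same-numbered libraries deviated together (r = 0.534 over 26790 IDs). With the replicate block, calls over all IDs were 4428 lower and 2777 higher. In that fit 8 related proteases, 2 carboxypeptidases, 4 cytotoxic markers and 5 thymocyte markers (Ptprc among them, adjusted p = 0.00416) were lower, and 2 granule partners, 4 mast cell and basophil markers, 2 cytotoxic markers and 4 mTEC markers were higher.

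DESeq2 called 2 carboxypeptidases, 2 cytotoxic markers and 2 thymocyte markers lower, and 2 mast cell and basophil markers and 1 cytotoxic marker higher. Without a filter 2 cytotoxic markers were lower and 1 mast cell and basophil marker higher, and library sizes alone gave 2 cytotoxic markers lower. Leaving out 1 library gave 4 to 7 related proteases, 1 to 3 carboxypeptidases and 1 to 4 cytotoxic markers lower, the highest of each without Aire-KO replicate 1. It gave 0 to 1 mast cell and basophil markers and 0 to 1 cytotoxic markers higher. For the Gzmb d3′UTR, lengths reduced for reads that cannot fit gave ratios of 0.360 and 0.862 in the libraries labelled WT. Apart from the settings' own construction, the cause was not tested. Depth limits the genes at 0 to the bounds given.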
